A study of Rattus norvegicus with 18 samples.

Results

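The circadian clock genes examined here in the rat left ventricle are 10 genes, chosen by symbol: the activators Arntl, Clock and Npas2, the repressors Per1, Per2, Per3, Ciart and Bhlhe41, and the output regulators Dbp and Nfil3. They are 10 of the 6588 genes that stood in at least 1 of the authors' 3 lists of changed genes. Each of the 10 stood in at least 1 list, but the genes were picked with earlier results of these data known, so that count is a description of the choice. The hearts came from 18 male rats. ZSF1 obese rats (n = 6) had hypertension with metabolic syndrome and stood for heart failure with preserved ejection fraction (HFpEF), ZSF1 lean rats (n = 6) were the hypertensive group, and WKY rats (n = 6) were the control strain. ZSF1 animals are hybrids of a Zucker diabetic fatty line and a spontaneously hypertensive heart failure line, and the obese ones carry a defective leptin receptor allele from each side. WKY is not a parent of that cross, so strain and disease differ together in the comparisons with WKY. The sources used here give neither the age of the rats nor the hour of day at which the hearts were taken. Hour of collection and group therefore cannot be told apart.

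The molecular clock is a feedback loop that runs in most cells, cardiomyocytes included. The Arntl protein (also called Bmal1) pairs with Clock or its close relative Npas2 and switches on genes that carry an E-box, among them the Per genes, Ciart and Dbp, and the Per proteins and Ciart then hold that pair in check. A second loop, run by the Rev-erb and ROR receptors, sets the rhythm of Arntl, and a further one works through D-boxes, which Dbp activates and Nfil3 represses. In rodent tissues, the heart among them, Arntl, Npas2 and Nfil3 transcripts peak at a time of day roughly opposite to that of the Per genes and Dbp.

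Each deposited value is a fold, the level in the first group as a ratio to that in the second, with the authors' adjusted p-value (FDR) from 6 rats against 6. The genes in the lists had folds of 2 or more, or 0.5 or less, with an FDR below 0.05. Levels per rat, standard errors and sequencing depth are not part of the lists, so neither the spread among rats nor an overlap of groups can be shown for any clock gene. A gene that is not listed may have changed less, may have missed the FDR limit or may not have been detected.

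In ZSF1 obese hearts against ZSF1 lean hearts, 4 of the 10 clock genes were listed as higher and 3 as lower, and 3 were not listed. Against WKY hearts, 4 were listed as higher in obese hearts, 4 as lower, and 2 were not listed. Of all listed genes, 53.4% were higher and 46.6% lower against lean hearts, and 54.0% were higher and 46.0% lower against WKY hearts, and the clock genes were split in a similar way. Of the 23148 RefSeq protein-coding genes, 23.4% were matched to a listed gene in obese against lean hearts and 23.5% in obese against WKY hearts. That total was not limited to genes detected in the ventricle, so the share among detected genes is not known. Against lean hearts, Arntl was the 1 listed activator of 3 and was lower, the repressors Per2, Per3 and Ciart were higher and Bhlhe41 lower, and of the output regulators Dbp was higher and Nfil3 lower. Against WKY hearts, the 3 activators were lower, Per1, Per2 and Per3 were higher and Bhlhe41 lower, and Dbp was higher. Repressors and output regulators thus held genes of both directions. The 5 genes listed in both obese comparisons had the same direction in both, but these comparisons share the obese rats. In ZSF1 lean hearts against WKY hearts, where 0.916% of RefSeq protein-coding genes were matched to a listed gene, 0 of the 10 were listed.

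**Figure D1:**
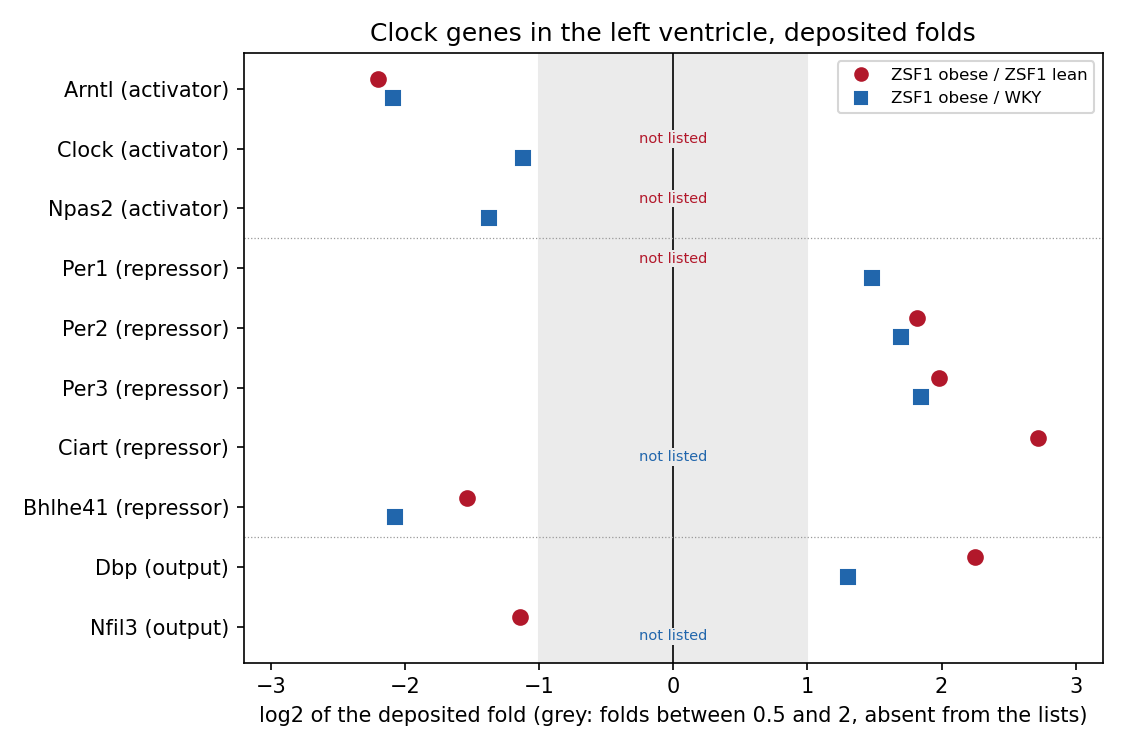
Deposited folds of the 10 clock genes on a log2 axis, with ZSF1 obese over ZSF1 lean hearts as red circles and ZSF1 obese over WKY hearts as blue squares, ordered by role; the words "not listed" mark a gene absent from that list and give no value. Arntl, Clock, Npas2, Bhlhe41 and Nfil3 lie left of 0, and Per1, Per2, Per3, Ciart and Dbp lie right of it.

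The activators that were listed stood lower in obese hearts, 1 of 3 against lean hearts and 3 of 3 against WKY hearts. Arntl (ENSRNOG00000014448), the partner of Clock or Npas2 in the activator pair, stood at 0.218 of the lean level in the authors' deposited table (FDR = 1.81e-15). Set against WKY hearts it stood at 0.235 in the authors' deposited table (FDR = 1.94e-10). Its fall in the obese hearts was thus of similar size on either side. Among the genes that were lower in obese than in lean hearts, 703 of 2655 had moved further than Arntl, so its fold was among the larger but not the extreme ones.

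The partners of Arntl were listed in obese against WKY hearts and not in obese against lean hearts. Clock (ENSRNOG00000002175), whose protein has been described as a histone acetyltransferase, stood at 0.46 of the WKY level in the authors' deposited table (FDR = 2.91e-32). This was the smallest FDR of any clock gene and at the same time the fold nearest to 1. Npas2 (ENSRNOG00000013408), which can stand in for Clock, was at 0.387 of the WKY level in the authors' deposited table (FDR = 6.73e-07). Since Clock lay just inside the limit of 0.5, its absence from the list against lean hearts does not show that the 2 comparisons differ, and that difference was not tested.

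The reference promoters of the clock genes were read for the 3 elements of the loop, on both strands, in a window of 250 bases before and 50 after the start used by RefSeq (build GRCr8). All 10 genes were found there, Arntl under its newer symbol Bmal1, and Clock with more than 1 start, for 11 windows in all. The start in that table need not be the outermost one of the gene. The Rev-erb and ROR core AGGTCA was present in 1 of the 10 genes, Arntl, against 16.2% of all 33469 promoter windows, and the longer form TAGGTCA, which contains that core, in 1 of 10 against 2.63%. In Arntl it began 16 bases before the start. The 250 bases before that start, on the plus strand at chr1:176766078-176766327, are shown because they carry the element through which the second loop acts, with TAGGTCA in capitals.
Arntl: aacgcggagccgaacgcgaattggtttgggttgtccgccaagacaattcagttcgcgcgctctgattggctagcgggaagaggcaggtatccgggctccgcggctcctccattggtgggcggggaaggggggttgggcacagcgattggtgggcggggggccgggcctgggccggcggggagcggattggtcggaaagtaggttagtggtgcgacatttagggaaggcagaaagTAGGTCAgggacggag

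Receptors that bind this element were among the core clock genes outside the 10. Rora (ENSRNOG00000027145), a ROR receptor that activates Arntl, stood at 0.438 of the WKY level in the authors' deposited table (FDR = 3.19e-06) and was not listed against lean hearts. The genes of the Rev-erb repressors, Nr1d1 and Nr1d2, were in none of the 3 lists. Of 10 core clock partners, 0 were listed in obese against lean hearts, and 1 was lower and 0 were higher in obese against WKY hearts. The shares of all protein-coding genes matched to a listed gene in these comparisons were 23.4% and 23.5%. The 9 partners never listed under these symbols are Arntl2, Cry1, Cry2, Nr1d1, Nr1d2, Rorb, Bhlhe40, Tef and Hlf. Matching synonyms over all the wider lists raised the count higher in obese against WKY hearts from 14 to 15. Which gene was added was not recorded. Counting the 10 genes and their 10 partners together, 4 of 20 were higher and 3 lower against lean hearts, and 4 were higher and 5 lower against WKY hearts.

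The Per genes, which encode the main negative limb of the loop, stood higher in obese hearts. Per2 (ENSRNOG00000020254) had a fold of 3.53 over lean hearts in the authors' deposited table (FDR = 1.74e-17). Over WKY hearts its fold was 3.25 in the authors' deposited table (FDR = 1.87e-10). Per3 (ENSRNOG00000018413), the member of the family least needed for rhythm in mice, followed closely. The authors' deposited table gave it a fold of 3.94 over lean hearts (FDR = 1.82e-17) and of 3.60 over WKY hearts (FDR = 2.4e-10). In both comparisons the order was Per3 above Per2, but without standard errors that order cannot be tested. Per1 (ENSRNOG00000007387), which also answers to glucocorticoids, was listed against WKY hearts, at 2.79 times their level in the authors' deposited table (FDR = 0.000771). It had the largest FDR of the listed clock genes and was not listed against lean hearts.

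In the promoter windows the D-box TTATGTAA was found in 1 of the 10 genes, Per2, against 0.893% of all windows. It began 192 bases before the start of Per2, and the E-box variant CACGTT, a motif added to the search after the data were seen, began 62 bases before it. That variant was in 1 of the 10 genes and in 4.83% of all windows, and it overlaps neither the D-box nor an E-box of the CACGTG form. The 250 bases before the start of Per2, on the minus strand at chr9:99496994-99497243 (GRCr8), are shown because both kinds of element stand in them, in capitals, D-box first.
Per2: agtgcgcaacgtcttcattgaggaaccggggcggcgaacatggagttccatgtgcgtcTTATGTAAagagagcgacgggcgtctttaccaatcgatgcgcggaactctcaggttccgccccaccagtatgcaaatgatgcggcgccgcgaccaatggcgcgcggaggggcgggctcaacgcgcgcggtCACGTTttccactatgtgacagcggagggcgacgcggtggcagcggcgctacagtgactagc

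**Figure D2:**
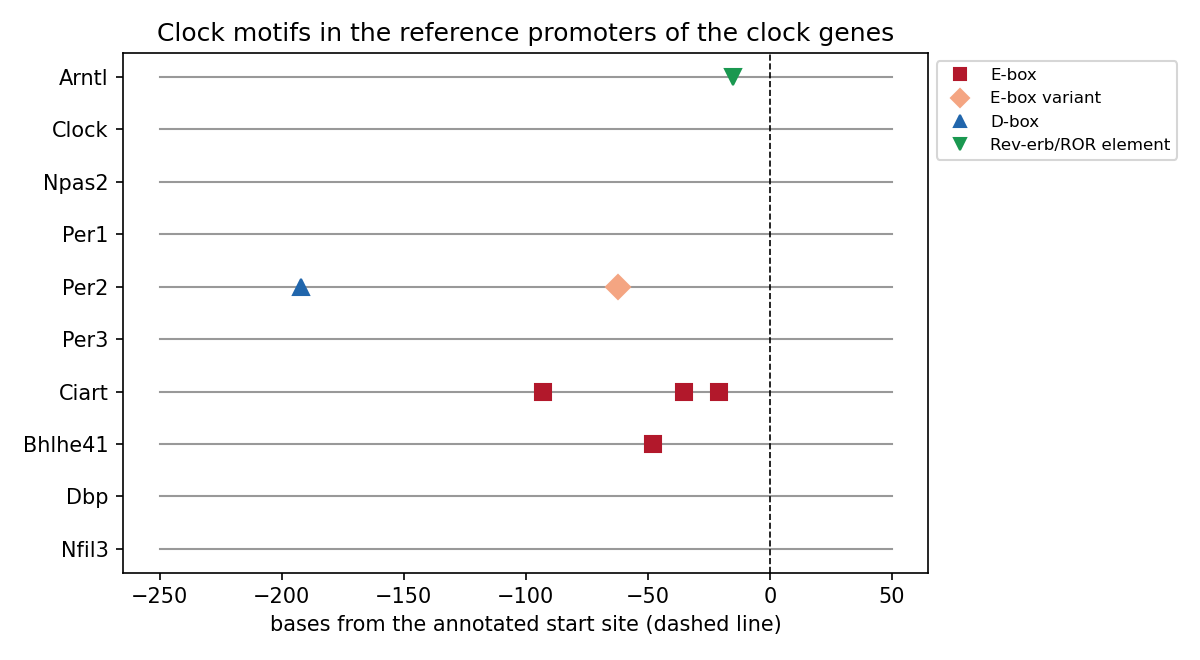
Clock elements found in the RefSeq promoter windows of the 10 clock genes, placed by the distance in bases of their first base from the annotated start (dashed line), with E-boxes of the CACGTG form as red squares, the CACGTT variant as an orange diamond, the D-box as a blue triangle and the AGGTCA core as a green triangle. For Clock the first of its windows is drawn. Elements stand in Arntl, Per2, Ciart and Bhlhe41, and Ciart has 3 of the red squares.

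Ciart and Bhlhe41, both repressors of the Arntl pair and both carrying the E-box CACGTG in the promoter window, went in opposite directions. Ciart (ENSRNOG00000042717), also known as Chrono, had a fold of 6.59 over lean hearts in the authors' deposited table (FDR = 1.59e-12). This was the largest fold of any clock gene, and 194 of the 3045 genes that were higher in obese than in lean hearts exceeded it. Ciart was not listed against WKY hearts. Bhlhe41 (ENSRNOG00000048961), also called Dec2, stood at 0.344 of the lean level in the authors' deposited table (FDR = 1.82e-10). The authors' deposited table had it at 0.237 of the WKY level (FDR = 3.67e-11). It was the repressor that stood with the activators on the lower side.

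The E-box CACGTG was in 2 of the 10 genes, Ciart and Bhlhe41, against 6.42% of all windows. Ciart held it at 3 places, beginning 93, 35 and 21 bases before the start, and Bhlhe41 held it once, 48 bases before the start. The loose form CANNTG, which includes CACGTG but not CACGTT, was in 8 of the 10 genes but also in 72.1% of all windows. Outside the 10 genes, the windows of Bhlhe40, Tef and Nr1d1 held CACGTG as well, and these genes were not listed. The bases before the starts of Ciart (minus strand, chr2:186112247-186112496, GRCr8) and Bhlhe41 (minus strand, chr4:180569356-180569605, GRCr8) are set side by side because the genes share the element, in capitals, and differ in direction.
Ciart: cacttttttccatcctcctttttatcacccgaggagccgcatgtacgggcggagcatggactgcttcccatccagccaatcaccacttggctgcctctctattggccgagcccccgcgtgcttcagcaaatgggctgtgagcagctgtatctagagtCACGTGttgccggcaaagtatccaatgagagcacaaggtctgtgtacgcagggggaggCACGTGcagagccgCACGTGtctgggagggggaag
Bhlhe41: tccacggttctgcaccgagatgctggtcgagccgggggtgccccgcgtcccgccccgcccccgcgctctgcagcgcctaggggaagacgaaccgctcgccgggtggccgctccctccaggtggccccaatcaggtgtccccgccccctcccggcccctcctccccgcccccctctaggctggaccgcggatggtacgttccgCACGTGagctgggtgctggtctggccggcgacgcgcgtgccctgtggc

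The output regulators Dbp and Nfil3, whose proteins compete for the D-box, also stood apart from each other. Dbp (ENSRNOG00000021027) had a fold of 4.76 over lean hearts in the authors' deposited table (FDR = 4.78e-09). Over WKY hearts its fold was 2.46 in the authors' deposited table (FDR = 8.07e-05). Nfil3 (ENSRNOG00000011668), which opposes Dbp at the D-box, stood at 0.454 of the lean level in the authors' deposited table (FDR = 1.28e-11) and was not listed against WKY hearts. As with Clock, that fold lay just inside the limit of 0.5. No element of the 3 kinds in their strict forms was found in the windows of Dbp or Nfil3, which says nothing of sequence outside them.

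**Figure D3:**
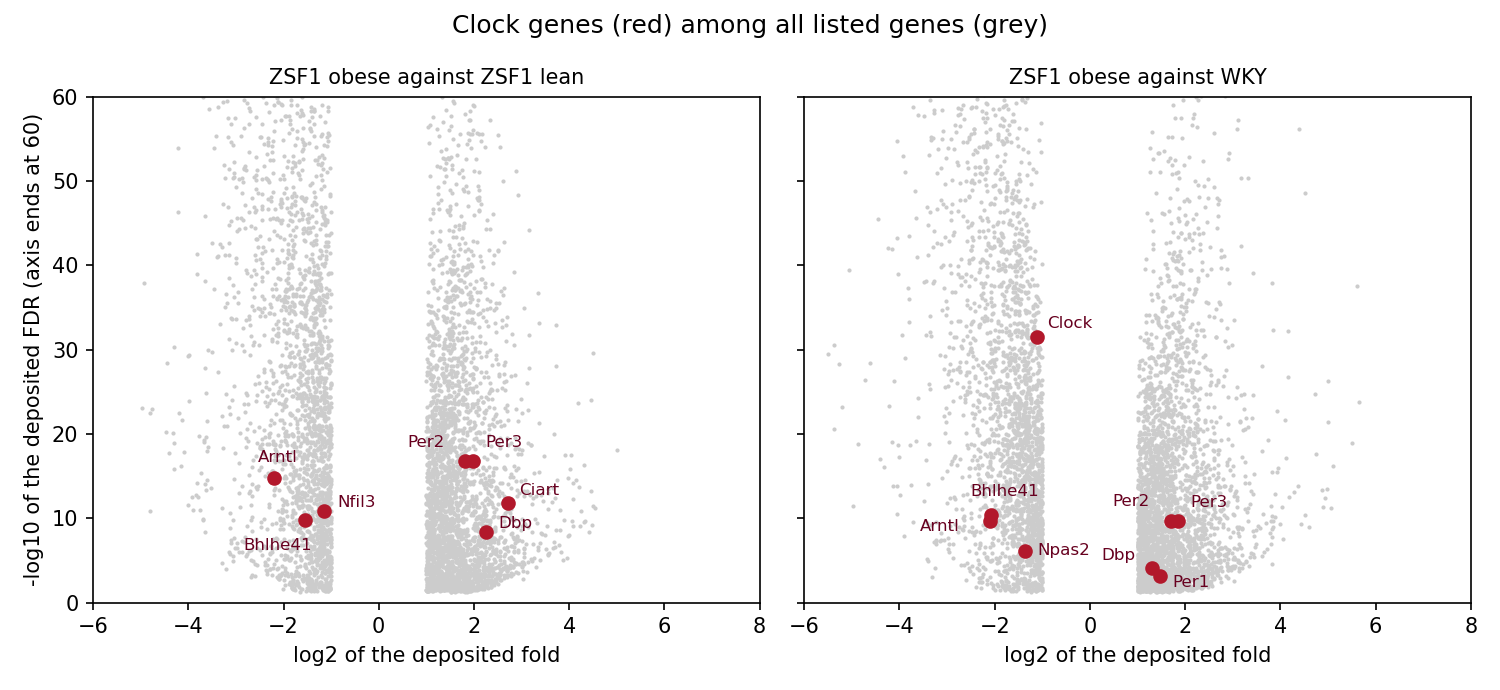
Log2 of the deposited fold against -log10 of the deposited FDR for all listed genes (grey) and the clock genes (red), with ZSF1 obese against ZSF1 lean hearts on the left and ZSF1 obese against WKY hearts on the right; the vertical axis ends at 60, and genes with a smaller FDR, or one given as 0, are not drawn. Against lean hearts, Ciart lies furthest right of the clock genes, Arntl furthest left, and Per2 has the smallest FDR of them. Against WKY hearts, Per3 lies furthest right, Arntl furthest left, and Clock has the smallest FDR.

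The list for ZSF1 lean against WKY hearts, which held no clock gene, was also the shortest. It held 233 genes, and its largest FDR was 0.000347, whereas the largest was 0.0498 in obese against lean hearts and 0.0499 in obese against WKY hearts. A clock gene with an FDR between those limits may therefore be absent from it. The fold over WKY hearts divided by the fold over lean hearts gives the ratio of lean to WKY that the obese lists imply, a quotient with no error of its own. That quotient was 1.08 for Arntl, 0.92 for Per2 and 0.914 for Per3. These lie close to 1, as did the median of 1.0 over the 4847 genes in both obese lists, whose 5th and 95th percentiles were 0.633 and 1.68. It was 0.689 for Bhlhe41 and 0.518 for Dbp. Of the 4847 genes, 5.18% had a quotient at least as far from 1 as that of Dbp and 16.2% one at least as far as that of Bhlhe41. Only genes past the fold and FDR limits in both obese lists have a quotient. Genes that differ strongly between lean and WKY hearts are the more likely to be left out. The 5 clock genes in 1 obese list have none, Ciart among them, with a fold of 6.59 over lean hearts. Quotients near 1 thus do not show that lean and WKY hearts agree in the clock genes. For the 79 genes in all 3 lists the quotient lay further from 1 than the deposited fold of lean over WKY. This held in all 79 and on the same side, so quotients and deposited folds are not on 1 scale. The fold limit of the lean against WKY list may therefore be stricter in effect, which may also keep a clock gene out of it. No clock gene was among these 79, and genes with a like pattern over all 3 comparisons could therefore not be named.

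**Figure D4:**
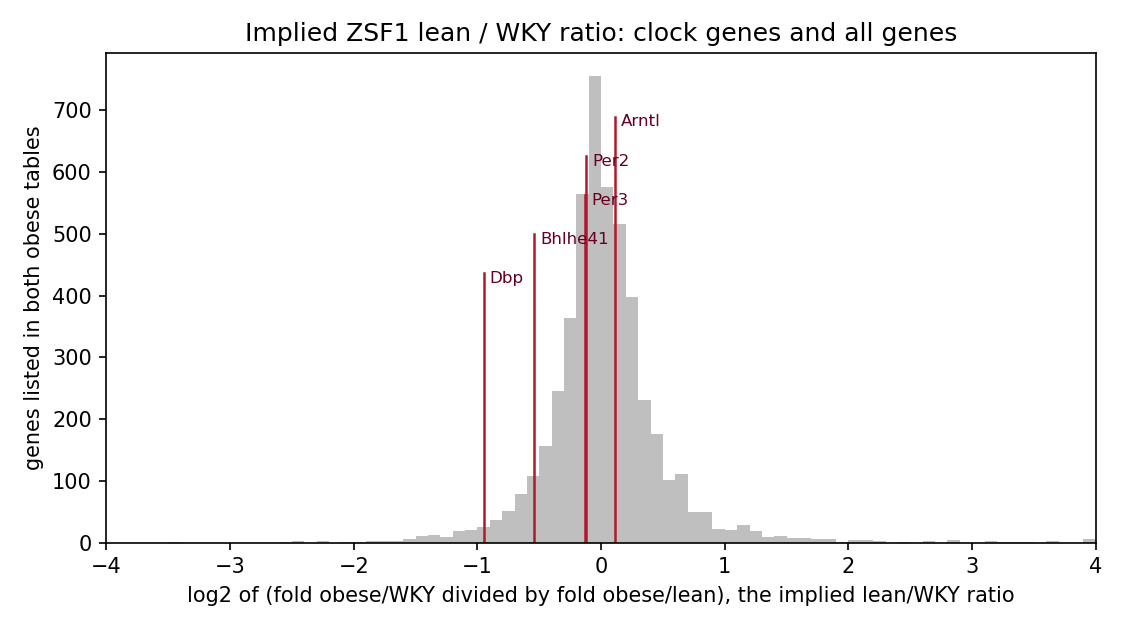
Histogram of the implied ratio of ZSF1 lean to WKY hearts (log2 of the obese over WKY fold divided by the obese over lean fold) for the 4847 genes in both obese lists, values beyond 4 in either direction drawn at the edge, with the 5 clock genes that have one marked in red. Arntl, Per2 and Per3 stand near 0, Bhlhe41 at -0.54 and Dbp at -0.95, the heights of the red lines carrying no meaning.

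Of 25 genes that modify or assist the clock proteins, 2 were higher, 8 lower and 15 not listed in obese against lean hearts, and 2 were higher, 6 lower and 17 not listed in obese against WKY hearts. Of all protein-coding genes, 23.4% and 23.5% were matched to a listed gene in these comparisons, and 46.6% and 46.0% of all listed genes were lower. The median fold of the lower ones of the 25 was 0.371 against lean and 0.27 against WKY hearts, beside 0.314 and 0.312 over all lower genes of those comparisons. Prkaa2 (ENSRNOG00000007706), a catalytic subunit of the energy-sensing kinase AMPK, which phosphorylates cryptochrome in mice, stood furthest from 1, at 0.036 of the lean and 0.029 of the WKY level in the authors' deposited table, with an FDR given as 0 in both. Csnk2a1 (ENSRNOG00000005276), the catalytic subunit of casein kinase 2, which phosphorylates Arntl and Per2, stood at 0.283 of the lean and 0.287 of the WKY level in the authors' deposited table. Gsk3b, a kinase that acts on several clock proteins, was at 0.454 of the lean and 0.342 of the WKY level in the authors' deposited table. Its relative Gsk3a was at 0.48 of the lean and 0.486 of the WKY level in the authors' deposited table. Ddb1, a subunit of a ubiquitin ligase complex, was at 0.454 of the lean level in the authors' deposited table (FDR = 2.75e-76) and was not listed against WKY hearts. Fbxl21, a ubiquitin ligase subunit that acts on the cryptochromes, was at 0.14 of the lean and 0.152 of the WKY level in the authors' deposited table (FDR = 1.33e-30 and 4.05e-25). Crebbp, a histone acetyltransferase that works with the Arntl pair, went the other way, with folds of 5.13 over lean and 2.91 over WKY hearts in the authors' deposited table, while its relative Ep300, named after its value was seen, was at 0.5 of the lean level (FDR = 9.93e-11). Outside the rule for named genes, and picked after its values were seen, Usp2, a rhythmic deubiquitinase gene that in mouse tissues follows the phase of the Per genes and Dbp, stood at 0.289 of the lean and 0.253 of the WKY level in the authors' deposited table (FDR = 1.31e-15 and 4.02e-15). Usp2 thus stood on the side opposite to the Per genes and Dbp in both comparisons. Timeless, picked likewise, was the other gene of the list that was higher, with folds of 2.71 over lean and 3.32 over WKY hearts in the authors' deposited table.

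Of 19 genes described as clock-controlled in rodent heart, 1 was higher, 9 were lower and 9 were not listed in obese against lean hearts, and 2 were higher, 8 lower and 9 not listed in obese against WKY hearts. Of all protein-coding genes, 23.4% and 23.5% were matched to a listed gene in these comparisons, and 46.6% and 46.0% of all listed genes were lower. The median fold of the lower ones of the 19 was 0.241 against lean and 0.235 against WKY hearts, beside 0.314 and 0.312 over all lower genes of those comparisons. Klf15 (ENSRNOG00000017808), a transcription factor that links the clock to cardiac metabolism and repolarisation, stood at 0.2 of the lean level in the authors' deposited table (FDR = 7.22e-98) and at 0.237 of the WKY level (FDR = 3.87e-48). Nampt, the enzyme that limits NAD salvage, was at 0.241 of the lean and 0.233 of the WKY level in the authors' deposited table. Pik3r1, a regulatory subunit of phosphoinositide 3-kinase, was at 0.332 of the lean and 0.319 of the WKY level in the authors' deposited table (FDR = 3.75e-24 and 1.68e-35). Lowest in the list against lean hearts were Bdh1, a ketone body enzyme, at 0.041, Pdk4, a kinase that shuts off pyruvate oxidation, at 0.06 and Ucp3, a mitochondrial uncoupling protein, at 0.104 of the lean level in the authors' deposited table. Bdh1 was also the one gene of the list that was listed between lean and WKY hearts, with a fold of 2.16 in lean over WKY hearts in the authors' deposited table (FDR = 3.83e-34). Kcnh2, a potassium channel gene of cardiac repolarisation, was at 0.272 of the lean level in the authors' deposited table (FDR = 6.64e-38) and at 0.312 of the WKY level (FDR = 2.55e-29). Dgat2, a triglyceride synthesis gene named after its values were seen, lay nearer to 1, at 0.444 of the lean and 0.387 of the WKY level in the authors' deposited table. Rgs16, a rhythmic regulator of G protein signalling named here after its values were seen, was higher, with folds of 2.62 over lean and 3.10 over WKY hearts in the authors' deposited table. Kcna5, another potassium channel gene, named likewise, was on the side opposite to Kcnh2 and had a fold of 2.44 over WKY hearts in the authors' deposited table (FDR = 0.000108).

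**Figure D5:**
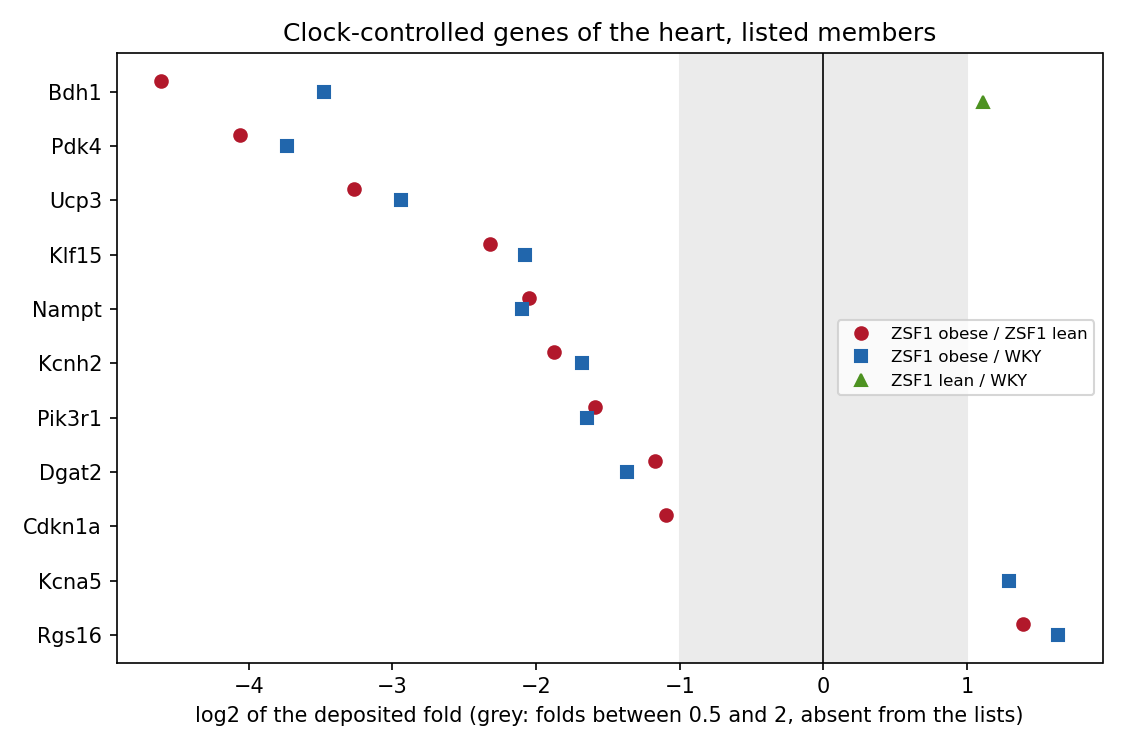
Log2 of the deposited fold for the listed members of the 19 clock-controlled heart genes, with ZSF1 obese over ZSF1 lean hearts as red circles, ZSF1 obese over WKY hearts as blue squares and ZSF1 lean over WKY hearts as a green triangle. Bdh1 lies lowest against lean hearts at a fold of 0.041 and Pdk4 lowest against WKY hearts at a fold of 0.075, while Rgs16 and Kcna5 lie right of 0.

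Markers of cell types were counted in the same lists. Of 10 cardiomyocyte markers, 4 were lower, 0 higher and 6 not listed in obese hearts, against lean and against WKY hearts alike. In obese against lean hearts, 7 of 8 endothelial, 7 of 8 macrophage, 5 of 8 lymphocyte, 4 of 8 fibroblast and 4 of 5 neutrophil markers were higher, with 0 lower in each list. In obese against WKY hearts the counts of higher markers were 7 of 8, 8 of 8, 6 of 8, 6 of 8 and 1 of 5 in the same order, with 0 lower. In lean against WKY hearts, 3 of 5 neutrophil markers were lower and 0 of the other markers were listed. Of all protein-coding genes, 23.4% were matched to a listed gene in obese against lean hearts and 23.5% in obese against WKY hearts. For lean against WKY hearts that share was 0.916%. Of all listed genes, 53.4% were higher in obese than in lean hearts and 54.0% higher in obese than in WKY hearts. The marker counts were not tested against those shares. Levels per rat, summed marker levels and the presence of the defining markers in each group could not be read from lists of changed genes. Fewer cells of a type and less RNA per cell cannot be told apart in whole ventricle, and the part of cell makeup in the clock gene values was not tested.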

How the data were processed

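Per the labels' protocols, left ventricles of 6 male rats in each of 3 groups were extracted with a Qiagen kit and polyadenylated RNA was sequenced from stranded libraries. HISAT2 2.1.0, HTSeq 0.11.2, DESeq2 1.22.2 and the build Rnor 6.0 are named in the submitters' processing notes, without order or settings. Per the file headers, the deposited tables give a linear fold (a ratio) and an FDR, the authors' adjusted p-value. Every listed fold was at least 2 or at most 0.5, as checked on the values.

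Clock genes were matched by symbol, and their folds and adjusted p-values were copied as the authors deposited them. Computed here with Python 3.11.15 and pandas 2.3.3 were counts, log2 folds, quotients of folds and promoter motifs; counting and motif search were tested on simulated data. The clock genes, 6 related lists (82 genes) and 6 marker lists were chosen with earlier results of these data known. Named genes are the 10 clock genes and up to 6 per related list and comparison by adjusted p; genes named after their values were seen are marked as such, and some genes of those lists are not reported here. Nothing in the labels says whether rats shared a batch of libraries, and depth per sample is unknown.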

Additional observations from a re-analysis of the deposited data

How the results depend on the processing

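Requiring an FDR under 0.001, matching synonyms or counting each symbol once left each of the 12 counts of clock genes and of the wider lists within 1.5 times its value. Keeping folds of 4 and above, or 0.25 and below, left, in obese against lean hearts, 2 clock genes higher (Ciart and Dbp) and 1 lower (Arntl), and in obese against WKY hearts 0 higher and 2 lower (Arntl and Bhlhe41). Under that limit the wider lists gave 1 higher and 7 lower against lean hearts, 2 higher and 7 lower against WKY hearts, and 0 higher in lean against WKY hearts. Fewer genes pass by the construction of that limit. The share of all genes that pass it was not counted, so the counts under it have no share to be set beside. In place of the E-box CACGTG in 2 genes, CANNTG was found in 8 and CACGTT, added after the data were seen, in 1. Counting 1 promoter per gene changed the share of windows with CACGTG to 6.65%. Leaving out each rat, another normalization and a filter on low counts need values per rat and were not run. No paired analysis was possible because the groups share no replicate numbers and the lists hold no values per rat. Depth limits could not be assessed without counts.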

Other observations

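Genes that respond to glucocorticoids or to temperature, and immediate early genes, were also counted. Of 11 glucocorticoid-responsive genes, 4 were higher and 2 lower in obese against lean hearts, and 6 were higher and 1 lower in obese against WKY hearts. Over all protein-coding genes, 23.4% and 23.5% were matched to a listed gene in these comparisons, higher and lower together. Fkbp5 (ENSRNOG00000022523), a chaperone that damps the glucocorticoid receptor and is itself induced by it, stood at 0.337 of the lean and 0.448 of the WKY level in the authors' deposited table (FDR = 2.58e-15 and 4.31e-10). Sgk1, a kinase gene also induced by glucocorticoids, had folds of 2.81 over lean and 3.68 over WKY hearts in the authors' deposited table. Cebpd, a transcription factor gene, had folds of 2.75 over lean and 5.86 over WKY hearts in the authors' deposited table. Cebpb was higher over WKY hearts in obese and in lean rats, with folds of 2.23 and 2.35 in the authors' deposited tables.

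Of 7 temperature-responsive genes, 1 was higher and 1 lower against lean hearts, and 2 were higher and 0 lower against WKY hearts. Rbm3, a cold-inducible RNA-binding protein gene, had folds of 3.56 over lean and 2.66 over WKY hearts in the authors' deposited table (FDR = 1.52e-40 and 3.79e-18), and its relative Cirbp was in none of the lists. Of 10 immediate early genes, 0 were listed against lean hearts and 2, Nr4a2 and Jun, were higher against WKY hearts, with folds of 2.33 and 2.11 in the authors' deposited table. Beside the counts of both lists, the share of all protein-coding genes matched to a listed gene was 23.4% against lean and 23.5% against WKY hearts. The counts of these short lists were not tested against those shares.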
